A study of Mus musculus with 199 samples.

Results

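The regions described here were the 40 kb windows that reach into the last 2 Mb of each mouse autosome, at the end of the assembled chromosome far from the centromere. A row of the call table was a member if it lay on chromosomes 1 to 19 and its end coordinate was less than 2 Mb from the largest end coordinate of that chromosome. This position rule used no measured value and gave 969 windows, 51 for each of the 19 ends, of 61816 autosomal windows and of 68162 rows in all. The other 60847 autosomal windows served for comparison.

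Mouse autosomes carry the centromere close to the start of the chromosome, so the distal end is the only telomere that is joined to long unique sequence. Telomeres consist of tandem copies of the hexamer TTAGGG, which are bound by the shelterin proteins and maintained by telomerase. The segment next to them holds ordinary genes together with degenerate telomere-like repeats and gene copies. In genome architecture mapping (GAM), thin slices of nuclei are cut by cryosectioning and laser microdissection, their DNA is amplified and sequenced, and distances between loci are inferred from how often a slice contains both.

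The samples were 199 multiplex-GAM libraries of mouse embryonic stem (ES) cells of the 46C line, strain 129/Ola, that the authors set aside because they failed quality control. Of these, 186 were 4NP libraries, each made from a cap labelled as holding 4 nuclear profiles of 220 nm thickness, whereas the series description speaks of 3 profiles on average. A further 11 libraries were water controls from empty caps and 2 were controls with 5 ng of human DNA in an empty cap. Every comparison is therefore one among failed libraries.

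Cells and growth were the same in all 4NP libraries, and all caps were amplified with the Sigma WGA4 kit. The sections differed by stain, by freezing and by reagents in 11 experiments. The full collection was stained with 1% cresyl violet and frozen in the cap. In the experiment titled as a cresyl violet test the stained sections were titled and described as crystal violet, at 1%, and were set beside unstained sections. Propidium iodide (PI) sections, at 10 ug/ml, were titled as frozen or not. By the labels, eosin was used at 0.5% in water or in 40% ethanol. The published methods instead give 1% eosin in water, and 0.5% in a higher share of ethanol. Titles and protocols disagreed about which SYBR Gold libraries were stained, and the titles were followed. Proteinase K was titrated by titled volumes of 1, 2, 3, 4 and 8 ul of an enzyme marked mdc and 1 ul of one marked csc, marks that the labels do not spell out. The smaller experiments varied reagent volumes (protocols a and c), kit size, the time of freezing and the number of amplification cycles (20, 23 or 25). Nothing says that replicates came from separate cultures, so p-values measure the spread between caps, which may be technical.

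Each value was a call, 1 for a window that the authors scored as present in a library and 0 otherwise. A 4NP library had between 1 and 17643 autosomal calls, with a median of 1549.5, and 144 of the 186 had at least 200. A pair of water controls went against their label: replicate 4 of the full collection had 27.2% of distal windows called (Wilson 95% interval 24.5% to 30.1%), and the water control titled unstained of the SYBR Gold test had 22.7% (20.2% to 25.4%). In the other 9 the distal share was at most 0.619%. Intervals cover counting error only, and neighbouring windows are not independent. Read depth was not used here, so few calls can mean little DNA or few reads.

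Sequences of 2 distal ends are shown first, that of chromosome 15, which was called most often, and that of chromosome 3, which was called least often. They were read from the NCBIM37 (mm9) genome on the plus strand, 5′ to 3′, and are the last 120 bases of each chromosome. Capitals would mark a full TTAGGG hexamer, and neither stretch holds one.
End of chromosome 15, chr15:103494855-103494974: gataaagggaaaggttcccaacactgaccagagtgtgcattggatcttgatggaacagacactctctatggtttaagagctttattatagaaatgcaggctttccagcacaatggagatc
End of chromosome 3, chr3:159599664-159599783: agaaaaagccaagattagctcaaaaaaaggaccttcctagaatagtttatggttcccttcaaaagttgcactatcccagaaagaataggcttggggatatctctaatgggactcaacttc

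None of the 19 autosomes ended in undetermined bases. Counting TTAGGG and its reverse complement CCCTAA in the last 300 bases, 4 ends held at least 10 copies, that of chromosome 15 held 1, and 14 ends, that of chromosome 3 among them, held none. Over whole windows, the hexamer repeated head to tail, on either strand, was found in 70 distal windows, 7.22% of them, and in 1.72% of other autosomal windows. A match is a description of the letters only.

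Distal windows held more genes than other autosomal windows. By GENCODE M1 annotation 64.0% of them overlapped a protein-coding gene, against 53.8% of the others, and mean GC content was 42.6% against 41.9%. Undetermined bases made up 0.142% of the mean distal window and 3.23% of the mean other window. The 19 ends together held 529 protein-coding genes, from 3 at chromosome 17 to 89 at chromosome 10.

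The first question was whether the ends were recovered as often as the rest of the autosomes. Over the 186 4NP libraries, a library had 5.03% ± 5.73 (SD) of distal windows called and 4.77% ± 5.39 of other autosomal windows. The distal share ran from 0% to 23.9% with a median of 2.79%. In 26 libraries no distal window was called, and 25 of these had fewer than 200 autosomal calls. A count of 0 of 969 windows allows a share of up to 0.310% if 3 counts are taken as the limit (0.395% by the Wilson interval). The exception, replicate 2 of the caps frozen after incubation, had 237 autosomal calls.

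Within the 144 libraries of at least 200 calls, the log2 ratio of distal to other coverage, with 0.5 calls added, was 0.026 ± 0.61 (SD), with a range of -2.92 to 1.20. The ratio was above 0 in 84 of 144, and distal coverage, with no calls added, was the higher in 79. By a permutation test that flips the sign of each library's ratio, two-sided with 100000 resamples, the mean was not distinguishable from 0 (p = 0.616, adjusted p = 0.784 over 14 tests within libraries). The ratio of summed coverage was 1.06, a log2 value of 0.079 ± 0.045 (jackknife SE over libraries). The sign of the small mean was not stable. It was -0.019 when windows with over 10% undetermined bases were left out and -0.039 when other windows were weighted to the GC content of the distal ones.

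The spread of the ratio was lowest in the libraries with most calls. In 37 libraries of 200 to 1000 calls the log2 ratio had an SD of 0.73, in 61 of 1000 to 5000 calls 0.62, and in 46 of 5000 or more 0.47. Without the library that had no distal call, whose ratio of -2.92 is set by the added calls, the SD of the first class was 0.55. The lowest ratio among libraries with over 5000 calls belonged to PI replicate 14, with 34 distal calls, 3.51% of distal windows against 11.2% of the others. The highest of all belonged to frozen PI replicate 2, with 60 distal calls, 6.19% against 2.71%. These libraries lie on opposite sides of 0 by more than 1 log2 unit, while the group means below lie within 0.42 of it.

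Of 12 conditions with at least 5 such libraries, none had a mean ratio that passed the test. Unstained sections of the crystal violet experiment had the highest mean, 0.41 ± 0.60 (SD, n = 5, exact sign-flip p = 0.25, adjusted p = 0.610). Their 5 ratios were 0.77, -0.17, -0.30, 0.80 and 0.96, so the group held both directions. With the last 4 Mb as the zone their mean was 0.055 and no longer the highest. The lowest mean was that of 3 ul of mdc proteinase K, -0.27 ± 0.82 (SD, n = 7, exact p = 0.422, adjusted p = 0.656), with distal coverage the higher in 3 of 7 libraries. It was -0.46 without replicate 1 and -0.068 without replicate 4, when it was no longer the lowest. Eosin in water had 7 of 8 libraries with higher distal coverage, a mean of 0.25 ± 0.62 (SD, n = 8) and an exact p of 0.289 (adjusted p = 0.610). Its mean was 0.44 without replicate 4 (exact p = 0.0156, adjusted p = 0.109) and 0.14 without replicate 6. The smallest exact p that this test allows is 0.0625 with 5 libraries, 0.0156 with 7 and 0.0078 with 8. After adjustment over 14 tests, no condition of these sizes could therefore pass alone. The p for eosin in water without replicate 4 is the smallest possible.

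**Figure D1:**
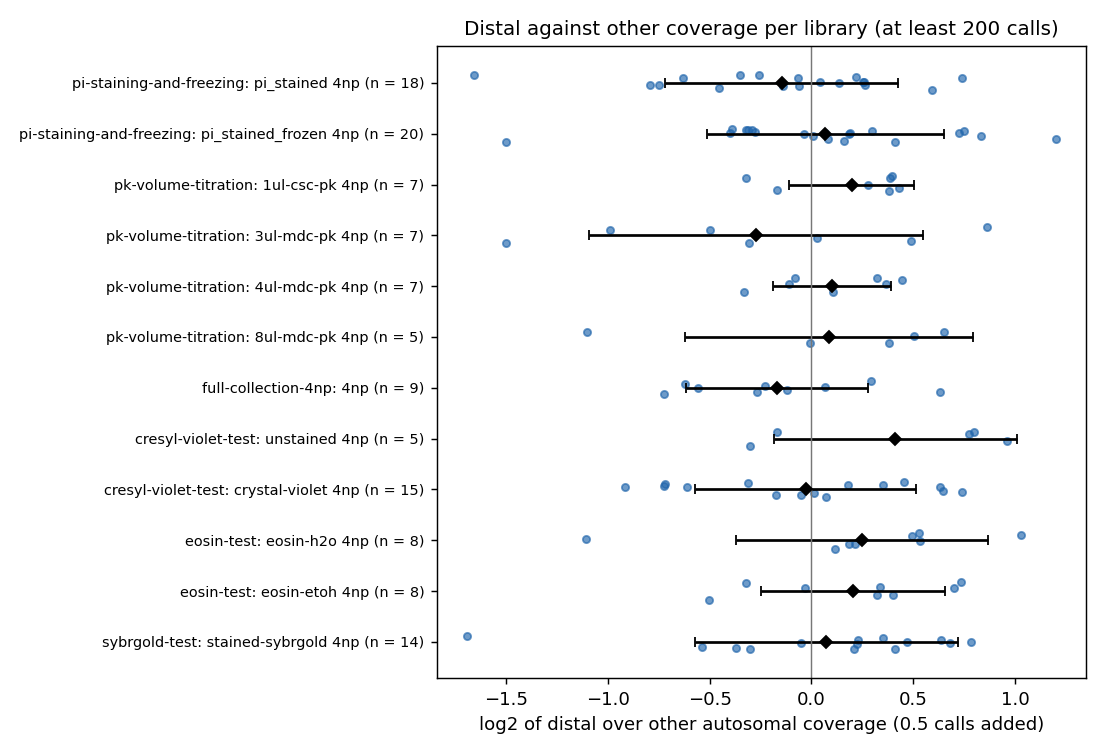
Log2 ratio of distal to other autosomal coverage, 0.5 calls added, for each 4NP library with at least 200 autosomal calls (points) in the 12 conditions with 5 or more such libraries; diamonds and bars are the mean and SD. Every condition has libraries on both sides of 0, and the means lie between -0.27 and 0.41.

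Conditions of one experiment were then compared directly. No plate column, read from the well names, held both groups of any of these comparisons except that of the full collection with its water controls, so plate column and condition cannot be told apart. For the distal to other ratio, 7 comparisons had at least 3 libraries on each side, and none passed (smallest p = 0.141, smallest adjusted p = 0.438 over 18 tests). Crystal violet had a mean log2 ratio of -0.028 ± 0.54 (SD, n = 15) and unstained sections 0.41 ± 0.60 (SD, n = 5), a difference of -0.44 with an interval of 2 SE from -1.04 to 0.16 (exact permutation p = 0.141). PI sections differed from frozen PI sections by -0.22, with an interval from -0.59 to 0.16. Eosin in ethanol differed from eosin in water by -0.045, from -0.59 to 0.50. For 3 against 4 ul of mdc enzyme the difference was -0.37, from -1.03 to 0.28, and for 1 ul of csc against 4 ul of mdc it was 0.095, from -0.22 to 0.41. For 3 against 8 ul it was -0.36, from -1.24 to 0.53, and for 4 against 8 ul 0.017, from -0.65 to 0.69. Every one of the 7 intervals held 0, and the widest spanned more than 1 log2 unit.

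For the level of distal coverage itself, 1 of 11 comparisons passed. The 5 unstained libraries of the crystal violet experiment had 11.0%, 12.9%, 11.4%, 2.89% and 8.36% of distal windows called. The 16 crystal violet libraries ran from 0.206% to 0.929% with a median of 0.516%, so the groups did not overlap. The means were 0.542% ± 0.254 (SD, n = 16) and 9.31% ± 3.94 (SD, n = 5), and the exact permutation p was 4.9e-05, the smallest that 20349 splits allow (adjusted p = 0.00088). The same libraries had 0.568% ± 0.194 and 8.22% ± 5.81 of other autosomal windows called, so the level of the distal ends moved with that of the whole autosomes.

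The other 10 comparisons of distal coverage did not pass. PI libraries had 8.27% ± 6.84 (SD, n = 21) of distal windows called and frozen PI libraries 5.57% ± 5.30 (SD, n = 21), a difference of 2.69 points with an interval from -1.08 to 6.47 (permutation p = 0.163, adjusted p = 0.438). Eosin in ethanol had 9.93% ± 5.55 (SD, n = 8) and eosin in water 6.53% ± 3.11 (SD, n = 8; exact permutation p = 0.151, adjusted p = 0.438). SYBR Gold libraries titled as stained had 3.27% ± 3.29 (SD, n = 15) and those titled unstained 0.585% ± 0.761 (SD, n = 3; exact permutation p = 0.159, adjusted p = 0.438). Their difference of 2.69 points had an interval of 2 SE from 0.779 to 4.60, which did not hold 0 although the permutation test did not pass. Among the enzyme volumes the means were 11.9% for 1 ul of csc and 9.11%, 11.3% and 6.37% for 3, 4 and 8 ul of mdc, each over 7 libraries, and the ranges of neighbouring volumes overlapped. The single library with 2 ul of mdc had 0.722%, and neither library with 1 ul of mdc had a distal call. The 34 failed libraries of the full collection had a median of 0.103%, a mean of 1.20% ± 3.40 (SD) and 14 libraries without a distal call. The 6 water controls of that collection had the same median and a mean of 4.68% ± 11.1 (SD), or 0.165% without replicate 4, whose 27.2% sets that mean. Within the 6 plate columns that held both, the mean difference was -3.95 points (23 libraries against 6 controls, exact permutation within columns p = 0.126, adjusted p = 0.438), and the control was the higher in 2 of 6. Without the column of replicate 4 it was 0.705 points (exact permutation p = 0.382, adjusted p = 0.643). Protocols a and c, with 3 libraries each, and caps frozen after incubation against unfrozen ones, with 3 and 2, could not pass, since no exact p below 0.1 is possible for either.

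Position within the last 2 Mb was examined next. Over all 4NP libraries, mean coverage in steps of 200 kb lay between 4.63% and 5.12% in the outer 1 Mb and between 4.84% and 5.53% in the inner 1 Mb, and between 4.41% and 5.73% from 2 to 10 Mb. The step just inside the 2 Mb limit had 5.53% ± 0.47 (jackknife SE) and the step just outside it 5.23% ± 0.51. The former holds chr10:128120001-128160000, the distal window called most often (66 of 186 libraries). Mean GC content rose over the same steps from 41.1% at the end to 44.6% at 2 Mb.

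**Figure D2:**
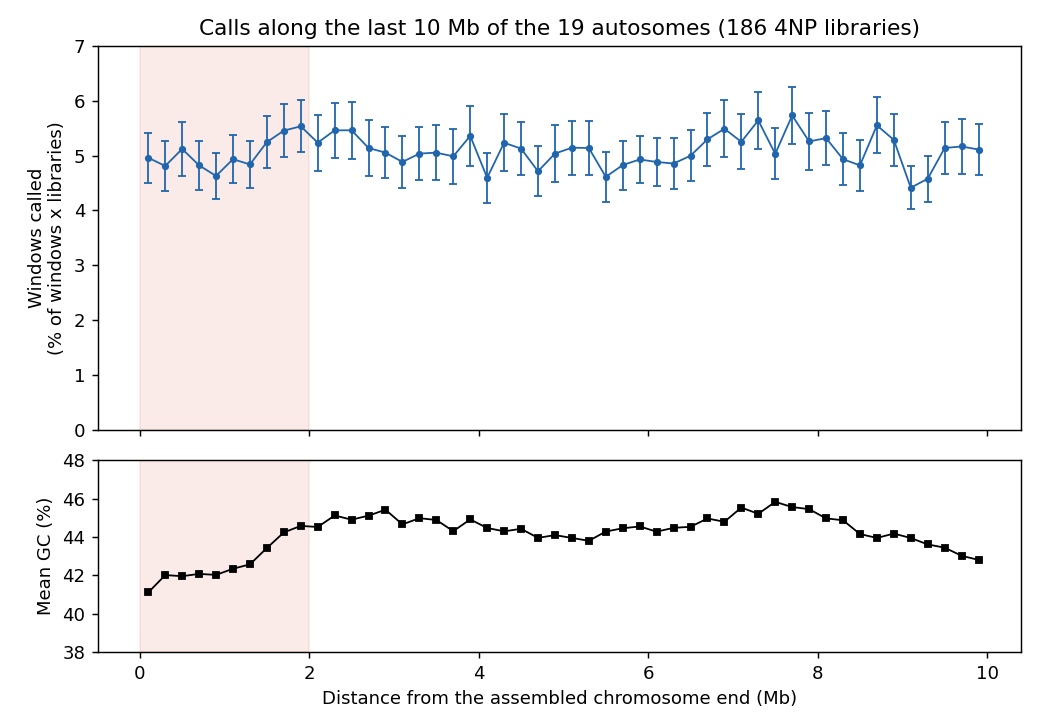
Upper panel, percent of windows called over 186 4NP libraries in steps of 200 kb from the assembled end (jackknife SE over libraries); lower panel, mean GC content of the same windows; the last 2 Mb are shaded. Coverage stays between 4.41% and 5.73% over 10 Mb, while GC content is lowest in the first step, at 41.1%.

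In paired form, the 494 windows of the last 1 Mb were called less often than the 475 distal windows before them. Their log2 ratio was -0.21 ± 0.73 (SD) over 144 libraries, a fold of 0.867, and the ratio was below 0 in 93 of 144 (sign-flip permutation p = 0.0011, adjusted p = 0.0154). The ratio of summed coverage over all 186 libraries was closer to 1, at 0.937 (4.87% against 5.20%, log2 -0.094 ± 0.050, jackknife SE). The mean was below 0 in 10 of 11 experiments, the 5 libraries of the cycle number test being the exception at 0.36. In this comparison outer windows had a mean GC content of 41.8% and inner windows 43.4%. The call was lost when inner windows were weighted to the GC content of the outer ones (-0.12, p = 0.0489, adjusted p = 0.610), when the last window of each chromosome was left out (-0.17, adjusted p = 0.0879), and without chromosome 10 (-0.12, adjusted p = 0.610). It was also lost with minimums of 500 (adjusted p = 0.0728) and 1000 calls (adjusted p = 0.129) and without chromosome 1, 7 or 16 (adjusted p of 0.0682, 0.137 and 0.0608). The inner windows of chromosome 10 include chr10:128120001-128160000, which was called in 63 of these 144 libraries. Among the outer windows, chr9:123360001-123400000 was called in 41 of 144 and chr2:181640001-181680000 in 39 of 144.

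At single ends the outer 1 Mb was the lower at 14 of 19. The difference was more than 2 SE below 0 at the ends of chromosomes 10 (3.97% against 6.52%, -2.55 ± 0.86 points, SE over 186 libraries), 5 (-1.47 ± 0.66) and 14 (-1.30 ± 0.59). It was more than 2 SE above 0 at the ends of chromosomes 9 (6.16% against 4.24%, 1.93 ± 0.78) and 6 (6.27% against 4.39%, 1.88 ± 0.77). The inner part of chromosome 10 holds a window called in 66 of 186 libraries, while the 4 windows around it were called in 11 to 15. Likewise, the outer part of chromosome 9 holds a window called in 43, with 11 to 14 in the 4 around it. Both windows enter these differences, which were not tested without them. The outer part had the lower GC content at 15 of 19 ends, and at 11 of these it was also called less often.

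Coverage of the 51 windows of an end over 186 4NP libraries ran from 3.68% ± 0.72 (jackknife SE) at chromosome 3 to 6.73% ± 0.96 at chromosome 15, a fold of 1.83, with a median of 5.22%. The SD among the 19 ends, 0.899 points, was about the size of the SE of a single end, and a difference among ends was not tested. After chromosome 15 came the ends of chromosomes 12 (6.29% ± 1.02), 11 (6.24% ± 0.91) and 2 (5.88% ± 0.91), and the lowest after chromosome 3 were those of chromosomes 19 (3.78% ± 0.66) and 13 (3.98% ± 0.77). Neighbours in this order lay within their errors.

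Against the rest of its own chromosome, the end was the higher at 11 of 19. Only the end of chromosome 15 was more than 2 SE away, by 2.12 ± 0.75 points. Next were chromosomes 12 (1.42 ± 0.78) and 7 (1.35 ± 0.69), and the most negative difference was that of chromosome 3 (-0.86 ± 0.66). When the rest of the chromosome was weighted to the GC content of the end, the difference at chromosome 15 was 1.24 ± 0.72 and no end remained beyond 2 SE.

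**Figure D3:**
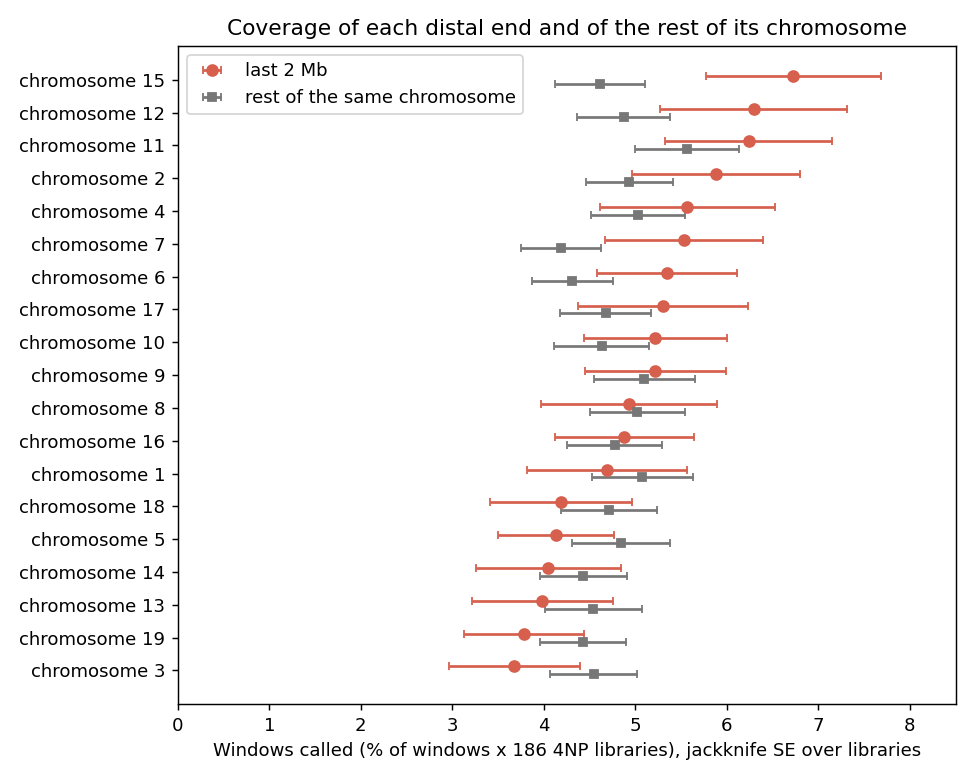
Percent of windows called over 186 4NP libraries in the last 2 Mb of each autosome (circles) and in the rest of the same chromosome (squares), with jackknife SE over libraries. The ends run from 3.68% at chromosome 3 to 6.73% at chromosome 15, and the rest of the chromosomes from 4.18% to 5.56%.

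The end of chromosome 15, which carries 68 protein-coding genes, among them Sp1 and Cbx5, was called more often than the rest of its chromosome in 9 of 12 conditions with at least 5 libraries. In PI libraries it reached 15.4% ± 21.4 (SD, n = 21) against 7.97% in the rest, with 7 libraries at 0 and the highest at 74.5%. In crystal violet libraries it had 1.72% ± 1.74 (SD, n = 16) against 0.554%. It was the lower in 3 ul of mdc enzyme (6.16% ± 9.02, SD, n = 7, against 16.9%), in the unstained libraries of the crystal violet experiment (1.18% ± 1.75, SD, n = 5, against 5.79%) and in the full collection (0.577% ± 1.32, SD, n = 34, against 0.901%). The end that was highest was not the same in every condition. It was that of chromosome 12 for 1 ul of csc, at 30.8% ± 25.1 (SD, n = 7), chromosome 7 in the unstained libraries, at 22.7%, and chromosome 11 for eosin in ethanol, at 18.4% ± 17.6 (SD, n = 8).

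Across the 19 ends, coverage went with gene number (Pearson r = 0.593, Spearman rho = 0.451) and with GC content (r = 0.561, rho = 0.549), and less with coverage of the rest of the chromosome (r = 0.344) or chromosome length (r = 0.101). These are descriptions over 19 points that share the same libraries. In windows the pattern was similar: distal windows in the lowest of 4 equal GC classes were called in a mean of 8.19 libraries and those in the highest in 11.1, and other autosomal windows in the same GC ranges in 8.01 and 10.5.

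Among windows with at most 10% undetermined bases, distal windows with a protein-coding gene were called in a mean of 9.74 libraries, other windows with one in 9.73. Distal windows without one were called in 8.74 libraries, other windows without one in 8.46. The 70 distal windows with a double telomere repeat were called in a mean of 8.33 libraries, and distal windows without it in 9.46. In other autosomal windows these means were 9.46 and 9.16.

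The last window of each chromosome is cut short by the chromosome end, so it spans from 3.86 to 39.8 kb. The 8 last windows under 20 kb were called in 0 to 9 libraries with a median of 1, and the 11 longer ones in 2 to 9 with a median of 6, against a median of 9 for all distal windows. The ends of chromosomes 7 (4.55 kb) and 11 (3.86 kb) were called in none of the 186 libraries. The last windows of chromosomes 5 and 13 were called in 1 library each, that of chromosome 2 in 6.

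The protein-coding gene nearest to each chromosome end lay between 0.035 and 192.5 kb from it, and the window that holds its end was called in 1 to 14 libraries with a median of 7. Among these were genes with broad roles. Wls, which is needed for Wnt secretion, ends 0.986 kb from the end of chromosome 3 in a window called in 5 libraries. Bicd1, an adaptor of the dynein motor, ends 5.19 kb from that of chromosome 6 (6 libraries), and Rfc3, a subunit of the clamp loader of DNA replication, lies 83.4 kb from that of chromosome 5 (6 libraries). Klhl17, of the kelch-like family, was in a window called in 2 libraries and Tmem196, a membrane protein gene 0.351 kb from the end of chromosome 12, in 1 called in 5.

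Some of the most distal genes encode receptors. Cr2, a complement receptor of B cells, had a window called in 11 libraries. Mrgprd, a receptor of sensory neurons, was in a window called in 13, the vomeronasal receptor gene Vmn2r87 in 9 and Csf2ra, a subunit of the receptor for GM-CSF, in 9. Glycam1, a mucin-like ligand of L-selectin, was in the window called in 14 libraries, and Fgf14, of the fibroblast growth factor family, in a window called in 3. Among genes with provisional names, 1700008F21Rik was in a window called in 13 libraries, 2610044O15Rik in 12, Gm9631 in 10, B230307C23Rik in 7, Gm14496 in 6, Gm7120 in 1 and Gm17635 in 1.

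Few distal windows stood apart from the rest. Of 969, 110 (11.4%) were called in at least 14 4NP libraries, where the share among all autosomal windows was 10.2%. At the low end 70 (7.22%) were called in at most 4 libraries, where that share was again 10.2%, and 2 (0.206%) in no library, where it was 3.86%. The latter shares include windows of undetermined sequence, which the distal ends almost lack.

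The most often called distal window was chr10:128120001-128160000, which overlaps Pmel, a pigment cell gene, Rab5b, a GTPase of early endosomes, the cell cycle kinase gene Cdk2 and the diacylglycerol kinase gene Dgka. It was called in 66 of 186 4NP libraries (35.5%), while the 4 windows around it were called in 11 to 15. By condition it was called in 8 of 8 libraries with eosin in water and in 6 of 8 with eosin in ethanol. It was called in 12 of 16 crystal violet libraries and in 1 of 34 of the full collection. It was also called in 3 of 11 water controls, 2 of which had few calls. Its share thus differed between experiments from 0% to 82.4%. It was called in 63 of the 144 libraries with at least 200 autosomal calls and in 3 of the 42 with fewer.

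The next 2 windows were also isolated peaks. Chr9:123360001-123400000, which overlaps Limd1, a LIM domain gene, and Lars2, the mitochondrial leucyl-tRNA synthetase gene, was called in 43 libraries and its 4 neighbours in 11 to 14. It was called in 4 of 5 libraries of the cycle number test and in 10 of 21 of the crystal violet experiment. Chr2:181640001-181680000, 68.1 kb from the end of its chromosome and without a protein-coding gene, was called in 39 libraries, with 15 and 13 in the adjacent windows. It was called in 13 of 31 libraries of the proteinase K titration and in 0 of 21 of the crystal violet experiment. Each was also called in 2 water controls.

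Chromosome 15 gave the 4th and 5th windows. Chr15:103040001-103080000, with Cbx5, which encodes heterochromatin protein 1 alpha, the splicing factor gene Hnrnpa1 and the erythroid factor gene Nfe2, was called in 25 libraries, against 12 to 15 in the 4 windows around it. Chr15:102200001-102240000, with the transcription factor gene Sp1 and Gm17671, was called in 21, against 11 to 19. Neither was called in a water control. Of the windows with the fewest calls, 4 were the short last windows named above. The window chr3:159440001-159480000, a full 40 kb without a protein-coding gene, was called in 1 4NP library and in 2 water controls. The short last window of chromosome 18 was likewise called in 1 4NP library.

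Calls at an end came in blocks. Among 107 4NP libraries with at least 1000 autosomal calls, a mean of 10.5 ± 0.32 (jackknife SE) of the 19 ends had any call, with a range of 4 to 19. At the other extreme, at least 26 of the 51 windows of an end were called in 56 of 2033 pairs of end and library. This is 2.75% of distal ends, and 2.66% of the 1142 blocks of 51 windows elsewhere were called to that extent (difference 0.099 ± 0.27 points, jackknife SE). Distal ends were without any call in 45.0% of cases and other blocks in 47.6%, a difference of -2.64 ± 1.17 points.

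The 56 largely called ends were spread over 35 libraries. The end of chromosome 12 was called to this extent in 6 libraries, those of chromosomes 4, 7, 8 and 17 in 5 each, and that of chromosome 5 in 0. The fullest were the end of chromosome 14 in unstained replicate 1 of the crystal violet experiment and that of chromosome 11 in full collection replicate 14, each with 42 of 51 windows called. In the first, 28 consecutive windows were called and the rest of chromosome 14 was called at 25.5%. In the second, the longest run was 9 windows and the rest of chromosome 11 was called at 28.9%. Over all 56, the longest run of called windows had a median of 8 and a range of 3 to 28.

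**Figure D4:**
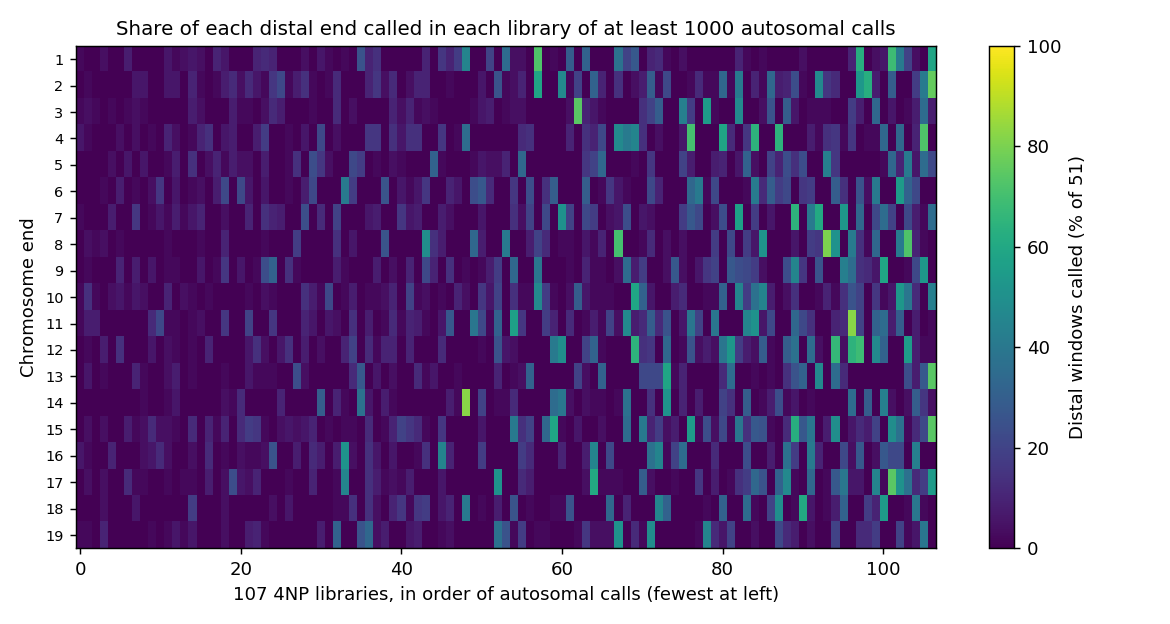
Percent of the 51 windows of each distal end that were called, as the colour scale shows (dark is 0), in 107 4NP libraries with at least 1000 autosomal calls, ordered by the number of calls. Of 2033 cells, 914 are at 0 and 56 reach 26 or more of 51 windows.

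Linkage between windows of an end was measured by D′, the normalized linkage disequilibrium of calls over libraries, which is 1 when the rarer window is called only together with the other. At 40 kb, D′ was 0.466 ± 0.030 (jackknife SE) over 940 pairs of distal windows and 0.459 ± 0.025 over 57898 pairs of other windows. It fell with distance in both, to 0.331 ± 0.035 and 0.337 ± 0.028 at 200 kb and to 0.212 ± 0.046 and 0.174 ± 0.037 at 1000 kb. The difference between distal and other pairs was at most 1.11 SE at each of the 5 distances, with values of 0.0073 ± 0.021 at 40 kb and 0.038 ± 0.034 at 1000 kb. Libraries of all experiments were pooled for this measure, so differences in coverage between libraries enter both values.

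**Figure D5:**
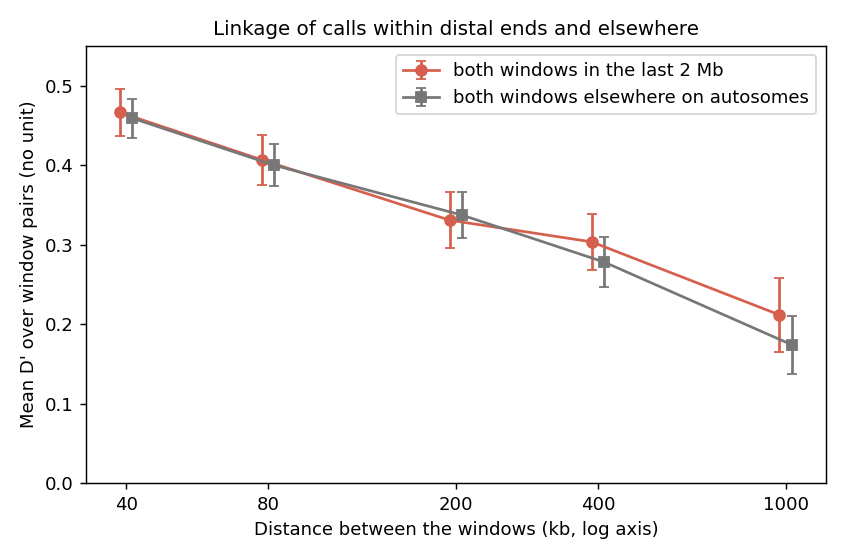
Mean D′ of window pairs against their distance (log axis, kb) for pairs within the last 2 Mb (circles) and pairs elsewhere on autosomes (squares), over 186 4NP libraries with jackknife SE. D′ falls from 0.466 to 0.212 at distal ends and from 0.459 to 0.174 elsewhere.

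Between ends of different chromosomes, D′ had a mean of -0.293 ± 0.047 (jackknife SE) over 437454 window pairs and a median of 0.059. Pairs of other autosomal windows on different chromosomes had a mean of -0.266 ± 0.055 and a median of 0.070. The difference of the means, -0.028 ± 0.030, was within its error, so calls of ends on different chromosomes were not linked more than those of other windows beyond this error. Blocks of 2 Mb that end 20 Mb before each chromosome end had a mean of -0.203 ± 0.062, and against these the difference was -0.091 ± 0.039, a ratio to its SE of -2.30. The means themselves depended on how often windows were called. For windows called in at least 10 libraries they were -0.061 ± 0.040 at distal ends and -0.042 ± 0.043 elsewhere, a difference of -0.018 ± 0.030. In libraries with at least 1000 autosomal calls they were -0.328 ± 0.036 and -0.300 ± 0.045. Among the 171 pairs of ends, with windows called in at least 2 libraries, the mean D′ ran from -0.690 to 0.058 and was above 0 for 6 pairs.

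Pooled over the water controls, distal windows were called about as widely as others. At least 1 water control called 405 distal windows (41.8%), where the share over all autosomal windows was 38.6%, and the 2 controls with many calls account for most of both. In the other 9 the mean share was 0.241% ± 0.242 (SD) for distal and 0.149% ± 0.147 for other windows, a difference that was not tested. Of the 2 human DNA controls, 1 had 2 distal calls and the other 0, with the same upper limits as above. The 2 calls were the windows with Tnfrsf14, a receptor gene of the tumour necrosis factor family, on chromosome 4, and with Kcnq1, a potassium channel gene, on chromosome 7. These are 0.206% of distal windows, and over all autosomal windows 0.0922% were called in a human DNA control.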

How the data were processed

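The deposited table gave, per 40 kb window of mm9 and library, a call of 0 or 1, which is neither a count nor a normalized signal. Per the labels and the methods, the authors aligned reads to mm9 with Bowtie2 (2.1), removed duplicates with Samtools and called windows with GAMtools at a threshold of 4 reads. A shorter window therefore met the same threshold. The ends of the table's chromosomes equalled NCBIM37 lengths, and genes came from GENCODE M1.

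Groups followed titles. Ratios used libraries with at least 200 autosomal calls. Sign-flip and two-sided permutation tests were exact below 10 libraries or up to 5000000 splits, and otherwise had 100000 resamples. P-values were adjusted by Benjamini-Hochberg within 14 and 18 tests. D′ used windows called in at least 2 libraries. Blocks elsewhere held 51 consecutive windows. Python 3.11.15 and numpy 2.4.6 were used, and the tests were tested on simulated data.

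Named genes were the most distal protein-coding gene of each autosome and up to 4 genes in each of the 5 most and 5 least called distal windows with at most 10% undetermined bases. Windows and genes named for the controls, and the libraries singled out, were chosen after their values were seen. Of the genes under this rule, 1 is not reported here, nor are some end sequences. The members and lists were chosen with earlier results of these data known. Alternatives covered the zone, window filters, GC weighting, comparison sets, minimum calls, added calls and left-out libraries or chromosomes.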

Additional observations from a re-analysis of the deposited data

Results flagged for a closer look

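Of 16 sets of 4 to 10 libraries examined, 2 held a library far from the others, where chance marks about 1 in 20 groups. Replicate 4 of the eosin in water libraries had a log2 ratio of distal to other coverage of -1.11, with 30 distal calls among 4151, while the next lowest of the 8 libraries was at 0.11. Among the empty caps of the full collection, replicate 4 had 27.2% of distal windows called, while the next highest of the 6 had 0.619%. Neither departure was tested further.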

How the results depend on the processing

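No paired analysis was possible because the titles give well names and no replicate numbers, which were assigned in accession order. The full collection could be set against its water controls within plate columns, a setting added after seeing the data (-3.95 points, adjusted p = 0.438, and 0.705 without the column of replicate 4). The difference in distal coverage between crystal violet and unstained libraries passed under every alternative run, with means that differed by -10.4 to -7.87 points when 1 library was left out.

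The mean distal to other log2 ratio, 0.026, was not called and changed sign easily. It was -0.079 with the last 1 Mb as the zone, -0.019 for windows with at most 10% undetermined bases, -0.039 with GC weighting, -0.0071 without the first 5 Mb of chromosomes, -0.045 without windows called in over 20% of 4NP libraries, -0.041 against the 2 Mb after the first determined base, and -0.0098, -0.0048 and -0.018 without chromosomes 9, 10 and 15. The settings on often called windows and on the first determined base were chosen after seeing the data, as were the left-out last windows, experiment means and left-out chromosomes of the outer to inner ratio. With libraries of 1 call or more the mean was 0.29 (adjusted p = 0.00168). The 42 libraries this adds have few calls. Of 25 without a distal call 13 were above 0, with a range of -1.79 to 4.39 that the 0.5 added calls set on the distal side. Of 17 with a distal call 15 were above 0, with a median of 1.63. With so few calls 1 distal call can put the ratio above 0, as in PI replicate 19 (15 autosomal calls, ratio 2.70). The mean with these libraries therefore cannot show whether distal coverage was higher. Left-out libraries gave 0.017 to 0.046.

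By condition and none of them called in the main analysis, the last 1 Mb gave -0.13 in frozen PI, -0.13 for 4 ul, -0.0088 for 8 ul and -0.062 in SYBR Gold libraries. A minimum of 1 call gave 0.011 in PI, 0.71 in the full collection (adjusted p = 0.0147, with 5 of 14 added libraries without and 10 of 11 with a distal call above 0) and 0.0086 in crystal violet. As above, 1 distal call can put such a library above 0, so these values cannot show higher distal coverage. Crystal violet was at 0.0012 with a minimum of 500 calls, which only replicates 9 (0.18) and 11 (-0.18) reached. It was at 0.11 with 1 call added. Left-out libraries gave -0.056 to 0.38 for 8 ul and -0.083 to 0.035 for crystal violet.

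The outer to inner ratio, -0.21, kept its sign in all settings run and lost its call with GC weighting (-0.12), minimums of 500 (-0.17) and 1000 calls (-0.15), without last windows (-0.17) and without chromosomes 1 (-0.19), 7 (-0.17), 10 (-0.12) or 16 (-0.18). Left-out libraries gave -0.22 to -0.19.

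Between conditions, differences in the ratio changed sign without a call. With the last 1 Mb they were 0.0083 for PI against frozen PI, 0.12 for eosin in ethanol against water and -0.13 for 4 against 8 ul, and with the last 4 Mb -0.0074 for csc against 4 ul. Eosin gave 0.011 without windows called in water controls and 0.15 in percentage points. For 4 against 8 ul a minimum of 1 call gave -0.22 and percentage points -0.25. Left-out libraries gave -0.24 to 0.067 for eosin and -0.28 to 0.16 for 4 against 8 ul, and with the sign kept -0.56 to -0.17 for 3 against 4 ul, -0.65 to -0.15 for 3 against 8 ul, -0.30 to -0.13 for PI against frozen PI, -0.62 to -0.30 for crystal violet against unstained and 0.023 to 0.18 for csc against 4 ul. For distal coverage they gave -0.779 to 1.76 points for csc against 4 ul, -4.42 to 1.03 for the full collection against water (1.03 also without the control of most calls) and -12.3 to 1.41 for frozen against unfrozen caps.

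For linkage, windows called in at least 10 libraries gave a difference of -0.012 at 1000 kb. With these windows the sign also changed at 80 kb (0.0068 to -0.0059) and at 200 kb (-0.0064 to 0.0076). Between chromosomes they gave -0.018, and the comparison with blocks 20 Mb before the ends gave -0.091. The cause of these changes was not tested. Libraries of few calls limit the ratio, and the number of reads behind a call is unknown.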
